A study of Mus musculus with 8 samples.

Results

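Mitochondrial ribosomal proteins were taken as every probe set whose gene symbol starts with Mrpl or Mrps followed by a digit. The rule found 77 of the 21212 probe sets in the expression table. Of these, 76 are genes (48 Mrpl symbols, assigned to the large subunit, and 28 Mrps symbols, assigned to the small subunit), and the remaining 1 is Mrpl27-ps, a pseudogene that is kept out of the counts. Gene expression was measured in the gastrocnemius and plantaris, fast hind limb muscles, of 7-week-old female wild type C57BL/6J mice. Mice of the unloaded group had had their hind limbs lifted off the cage floor for 5 days, a model of muscle disuse, and those of the weight bearing group had not. Each RNA sample came from its own mouse and was hybridised to 1 Affymetrix Mouse Gene 1.0 ST array, which carries no separation of cell types. The values are log2 expression values, so a difference of 1 is a 2-fold difference.

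Mitochondria carry their own ribosome, which is distinct from the ribosome of the cytosol. It translates the few messenger RNAs that mitochondrial DNA encodes, all of them for subunits of the oxidative phosphorylation complexes, while every protein of the ribosome itself is encoded in the nucleus, made in the cytosol and imported. The small subunit reads the messenger RNA, and the large subunit joins the amino acids and is attached to the inner mitochondrial membrane. Compared with its bacterial ancestor the mitochondrial ribosome has lost ribosomal RNA and gained proteins that bacteria lack. Skeletal muscle depends on it for its respiratory capacity.

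The upstream sequences of the 5 largest called falls in each subunit and of the called rise are shown first, with or without a motif, because promoters of nuclear genes for mitochondrial proteins often hold motifs of the factors NRF-1, ETS (the family of NRF-2) and YY1. RefSeq promoter windows (GRCm38.p6, 250 bases before to 50 bases after the start) were found for 67 of the 76 genes. Capitals mark a match to ETS (CCGGAAG), YY1 (AAGATGGC) or NRF-1 (CGCATGCG) on either strand, in the 120 bases before the start. Mrpl19 and Mrps28 had no matched window. Mrpl51, Mrpl42, Mrpl45 and Mrpl34 fell in the large subunit, Mrps27, Mrps6, Mrps21 and Mrps22 fell in the small subunit, and Mrps30 was the only member called higher. Of these 9 stretches, 4 hold an ETS match and 5, those of Mrpl42, Mrpl45, Mrps6, Mrps21 and Mrps30, hold no match.
Mrpl51 (chr6:125192080-125192199, plus strand): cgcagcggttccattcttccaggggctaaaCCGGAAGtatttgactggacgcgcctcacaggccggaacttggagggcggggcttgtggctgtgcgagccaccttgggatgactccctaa
Mrpl42 (chr10:95501950-95502069, minus strand): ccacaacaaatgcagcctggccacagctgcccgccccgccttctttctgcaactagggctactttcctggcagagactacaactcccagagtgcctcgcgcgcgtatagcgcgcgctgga
Mrpl45 (chr11:97315596-97315715, plus strand): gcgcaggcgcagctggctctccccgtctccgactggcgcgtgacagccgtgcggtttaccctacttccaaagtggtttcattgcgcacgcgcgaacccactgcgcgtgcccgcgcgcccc
Mrpl34 (chr8:71464806-71464925, plus strand): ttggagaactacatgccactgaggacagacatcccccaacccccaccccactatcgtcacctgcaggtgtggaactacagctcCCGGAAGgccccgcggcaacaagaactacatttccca
Mrps27 (chr13:99344666-99344785, plus strand): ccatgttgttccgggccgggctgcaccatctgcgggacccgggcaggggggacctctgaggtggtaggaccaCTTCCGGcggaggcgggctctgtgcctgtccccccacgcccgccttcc
Mrps6 (chr16:92058216-92058335, plus strand): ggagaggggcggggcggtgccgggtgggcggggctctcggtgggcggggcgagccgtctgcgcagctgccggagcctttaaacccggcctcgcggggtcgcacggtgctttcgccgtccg
Mrps21 (chr3:95871515-95871634, minus strand): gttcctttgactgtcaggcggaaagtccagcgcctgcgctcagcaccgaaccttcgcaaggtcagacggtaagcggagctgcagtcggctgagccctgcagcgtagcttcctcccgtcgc
Mrps22 (chr9:98601680-98601799, minus strand): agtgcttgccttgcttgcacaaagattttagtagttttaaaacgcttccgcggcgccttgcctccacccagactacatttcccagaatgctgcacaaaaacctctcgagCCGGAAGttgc
Mrps30 (chr13:118387253-118387372, minus strand): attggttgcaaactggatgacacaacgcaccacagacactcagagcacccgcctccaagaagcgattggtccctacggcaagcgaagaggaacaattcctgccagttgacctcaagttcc

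The ETS letters were present in 26 of the 67 windows (38.8%), against 2118 of the 15548 genes on the arrays with a window (13.6%). YY1 letters were found in 12 windows (17.9%, against 3.76% of all genes) and NRF-1 letters in 7 (10.4%, against 2.98%). At least 1 of the 3 motifs was in 38 windows (56.7%, against 18.8%). The NF-kB consensus matched 2 windows, those of Mrpl14 and Mrpl28 (2.99%, against 5.73%). No match of a member overlapped a match of another motif. Among the 20 called lower members with a window, 10 held the ETS letters, and among the other 47 members with a window 16 did. In the 50 bases after the start, outside the stretches shown, Mrpl42 and Mrps27 had YY1 letters and Mrps21 had ETS letters. Mrpl45, Mrps6 and Mrps30 had no match of ETS, YY1 or NRF-1 in the whole window. A match is a description of the letters, and no binding was measured here.

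Genes of the mitochondrial ribosome were lower in unloaded muscle more often than higher. Of the 76 genes, 23 were lower and 1 was higher at an adjusted p under 0.05 (limma, a linear model that steadies each gene's variance with that of all others, Benjamini-Hochberg over all 21212 probe sets, 4 arrays per group), and 52 were not called. Over all probe sets 11.0% were called lower and 12.8% higher. By the methods' t-test as rerun here, 18 members were lower and 1 was higher, where 6.48% and 6.57% of all probe sets were called. Values below 0 were found for 64 of the 76 changes, against 38.6% of all probe sets. The median change of the members was -0.10 on the log2 scale, beside 0.04 over all probe sets. The changes were modest in size. The called lower members had a median fall of 1.27-fold, 15 of the 76 were lower by at least 1.2-fold, and 2 of them, Mrpl51 and Mrpl42, by at least 1.5-fold. In 26 members all 4 unloaded arrays lay below all 4 weight bearing arrays (12.0% of all probe sets did), in 3 they lay above (15.5% of all probe sets), and in 47 the groups overlapped.

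**Figure D1:**
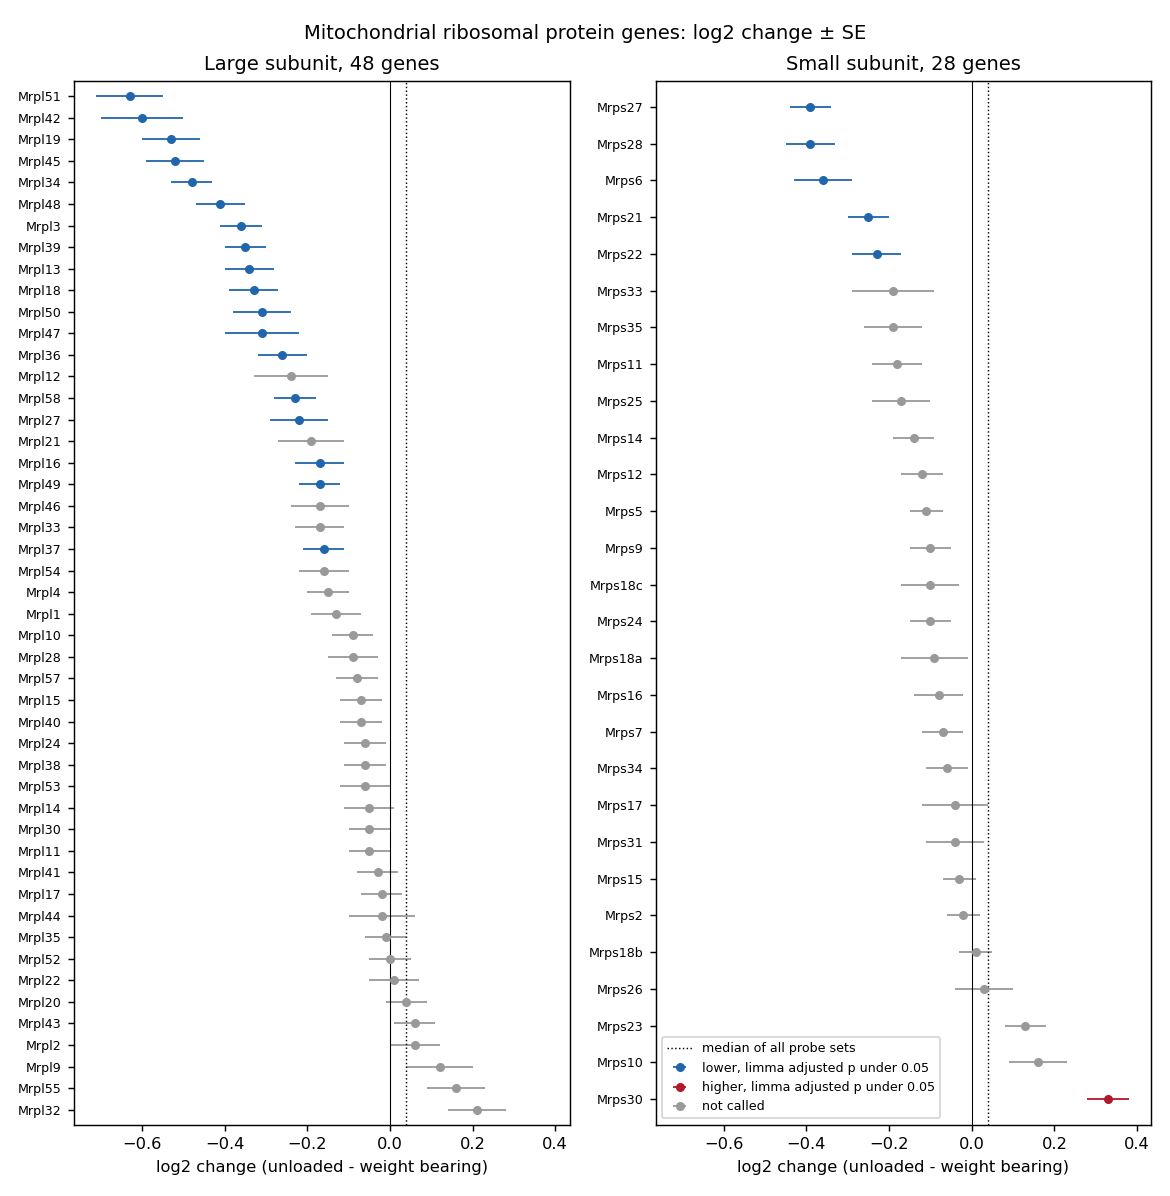
Log2 change (unloaded minus weight bearing, x axis) of each of the 48 large subunit genes and 28 small subunit genes, with bars of 1 SE from the fit over 4 arrays per group; the dotted line is the median of all probe sets (0.04). Most points lie left of 0, the called falls reach -0.63 for Mrpl51 and -0.39 for Mrps27 and Mrps28, and Mrps30 (0.33) is the called rise.

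As whole muscle was measured, fewer cells of a type and less RNA per cell cannot be told apart. The arrays were alike in scale, with medians between 6.28 and 6.33, and correlated at 0.996 to 0.997 within groups and 0.992 to 0.994 between them. All 10 markers of muscle fibres were expressed at mean levels between 12.05 and 13.18, and 3 of them were lower (Acta1, Mb and Pvalb) and 0 higher by limma, where the methods' t-test called 4 and 1. Their median change was -0.05 (the summed level was 16.10 to 16.14 in unloaded and 16.16 to 16.22 in weight bearing arrays). These fibre markers lie near the top of the range, where the highest mean of any probe set was 13.2. Whether their signal was compressed there was not tested. Markers of other cells moved too. Of 8 fibroblast markers, 5 were lower (Col1a1, Postn, Fbn1, Col3a1 and Lum, with changes of -2.48 to -1.16). Dcn (-0.02), Pdgfra and Gsn (both -0.11) were not called. The list had a median change of -1.21 and summed levels of 13.16 to 13.21 in unloaded and 13.58 to 13.75 in weight bearing arrays. Of 8 macrophage markers, 6 were lower (median -0.43, summed levels of 10.68 to 11.03 in unloaded and 11.10 to 11.37 in weight bearing arrays), and of 7 endothelial markers 3 were lower (median -0.08, 11.92 to 11.99 in unloaded and 12.13 to 12.26 in weight bearing arrays). Of the 5 lymphocyte, 4 nerve and Schwann cell and 4 adipocyte markers, 0 were called by limma or the methods' t-test, with 1 lower and 1 higher at an unadjusted p under 0.05. Mean levels of the lymphocyte markers ran from 3.36 to 6.04, below the median of all probe sets (6.31). Whether these markers were detected was not tested. The part of all these markers in the changes of the ribosomal genes was not tested either.

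In the large subunit 18 of 48 genes were lower (37.5%) and 0 higher, with 25 lower and 2 higher at an unadjusted p under 0.05 and 15 lower and 0 higher by the methods' t-test. At that unadjusted threshold 15.4% of all probe sets were lower and 22% higher (4669 of 21212). The changes ran between -0.63 and 0.21, with a median of -0.14. The largest fall was that of Mrpl51, a mitochondria-specific protein of the large subunit. Its values were 8.45, 8.29, 8.57 and 8.37 in the unloaded arrays, against 9.08, 8.99, 9.21 and 8.91 in the weight bearing arrays. All 4 unloaded arrays were below all weight bearing arrays, and the change was -0.63 ± 0.08 (SE, limma adjusted p = 0.000428), a 1.54-fold fall.

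Mrpl42, another protein without a bacterial counterpart, measured 8.75, 8.80, 8.99 and 8.78 in the unloaded arrays, against 9.29, 9.38, 9.73 and 9.31 in the weight bearing arrays. Weight bearing array 3 lay above the rest of its group, the groups did not overlap, and the change was -0.60 ± 0.10 (SE, adjusted p = 0.00196). Mrpl19, the homologue of bacterial L19 at the interface of the subunits, measured 7.41, 7.42, 7.65 and 7.54 in the unloaded arrays, against 8.07, 7.94, 8.18 and 7.93 in the weight bearing arrays. It was 1.44-fold lower without overlap (-0.53 ± 0.07, adjusted p = 0.000856). Mrpl45, which attaches the large subunit to the inner membrane near the tunnel through which the new peptide leaves, measured 7.83, 7.73, 7.62 and 7.70 in the unloaded arrays, against 8.34, 8.17, 8.35 and 8.11 in the weight bearing arrays. The unloaded values were again all the lower ones (-0.52 ± 0.07, adjusted p = 0.000654, 1.43-fold lower). For Mrpl34, the homologue of the small bacterial protein L34, the values were 9.47, 9.58, 9.53 and 9.59 in the unloaded arrays, against 10.10, 9.98, 10.05 and 9.97 in the weight bearing arrays. This was the tightest of the 5 falls, with a mean of 9.54 ± 0.05 in unloaded and 10.03 ± 0.06 in weight bearing muscle (SD, n = 4 arrays each), a change of -0.48 ± 0.05 (SE) and a limma adjusted p of 0.000178.

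The other 13 called large subunit genes were lower by between 0.41 (Mrpl48) and 0.16 (Mrpl37) on the log2 scale. They included Mrpl3 (-0.36, adjusted p = 0.00118), which lies near the catalytic centre, Mrpl39 (-0.35, adjusted p = 0.000726), Mrpl13 (-0.34), Mrpl18 (-0.33), Mrpl50 and Mrpl47 (both -0.31) and Mrpl36 (-0.26). Mrpl58, which releases peptides from stalled mitochondrial ribosomes, was lower by 1.17-fold (-0.23 ± 0.05, adjusted p = 0.00842). Mrpl27 was the only called lower gene whose groups overlapped, with the highest unloaded array at 6.67 and the lowest weight bearing array at 6.67. Its pseudogene Mrpl27-ps was also lower (-0.29, adjusted p = 0.0457), with overlapping groups, and whether probes are shared between the gene and the pseudogene was not tested. Mrpl16, Mrpl27 and Mrpl47 were called by limma and not by the methods' t-test. Mrpl16, Mrpl27, Mrpl37 and Mrpl47 missed the threshold in most fits with 1 array left out, while their changes in those fits stayed close to the value over all arrays. Mrpl16 (-0.17) was at -0.19 to -0.14 (adjusted p up to 0.122) without unloaded array 2, 3 or 4 or weight bearing array 1, 3 or 4. Mrpl27 (-0.22) was at -0.24 to -0.17 (up to 0.103) without any 1 array other than weight bearing array 2. Mrpl37 (-0.16) was at -0.18 to -0.14 (up to 0.0806) without any 1 other than weight bearing array 4. Mrpl47 (-0.31) was at -0.32 to -0.24 (up to 0.0751) without unloaded array 2, 3 or 4 or weight bearing array 2 or 3. At the other end, Mrpl32, whose maturation is required for assembly of the ribosome, was not called at a change of 0.21 (adjusted p = 0.0544), although its unloaded values of 8.52, 8.38, 8.52 and 8.38 lay above the weight bearing values of 8.31, 8.25, 8.34 and 8.07. It passed the threshold without weight bearing replicate 3 (adjusted p = 0.0487).

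By origin, 9 of 19 mitochondria-specific large subunit genes were lower (47.4%, median -0.16) and 9 of 29 genes with a bacterial homologue (31.0%, median -0.09), with 0 higher in either by limma or the methods' t-test (0 and 2 at an unadjusted p under 0.05). Over all probe sets 11.0% were lower by limma and 6.48% by the methods' t-test. At the unadjusted threshold 15.4% were lower and 22% higher. By position in the subunit, 3 of the 5 genes around the catalytic centre were lower (Mrpl3 and, close to the threshold, Mrpl16 and Mrpl27; 1 by the methods' t-test), Mrpl4 just missed it (-0.15, adjusted p = 0.0519), and Mrpl2 stood at 0.06 (adjusted p = 0.473). At the peptide exit 2 of 5 were lower (Mrpl45 and Mrpl47), while Mrpl17, Mrpl22 and Mrpl24 had changes between -0.06 and 0.01. Of 7 genes of the central protuberance, the part that faces the head of the small subunit, 3 were lower (Mrpl18, Mrpl27 and Mrpl48). None of the 5 stalk genes, which recruit translation factors, was called by limma or by the methods' t-test. Their changes ran between -0.24 and -0.05, all 5 below 0 and 2 of them at an unadjusted p under 0.05. Differences between these groups of genes were not tested.

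In the small subunit 5 of 28 genes were lower (17.9%) and 1 was higher, with 12 lower and 2 higher at an unadjusted p under 0.05 and 3 lower and 1 higher by the methods' t-test. Over all probe sets 11.0% were lower by limma, 15.4% were lower and 22% higher at the unadjusted threshold, and 6.48% were lower with the methods' t-test, so that the share of the small subunit was nearer that of all probe sets than the share of the large subunit was. The changes ran between -0.39 and 0.33, with a median of -0.10. Mrps27, a pentatricopeptide repeat protein, a class that binds RNA, measured 7.16, 7.03, 7.14 and 7.09 in the unloaded arrays, against 7.44, 7.53, 7.44 and 7.57 in the weight bearing arrays. The groups were far apart for their spread (SD 0.06 in unloaded and 0.07 in weight bearing muscle), with a change of -0.39 ± 0.05 (SE, adjusted p = 0.000703) and a 1.31-fold fall. Mrps28, the mitochondrial relative of bacterial S1, measured 8.63, 8.62, 8.84 and 8.74 in the unloaded arrays, against 9.13, 9.06, 9.11 and 9.06 in the weight bearing arrays. It changed by -0.39 ± 0.06 (adjusted p = 0.00125), also 1.31-fold and without overlap.

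Mrps6, the homologue of bacterial S6, measured 8.25, 8.43, 8.16 and 8.43 in the unloaded arrays, against 8.71, 8.70, 8.63 and 8.66 in the weight bearing arrays. The unloaded values were more spread (SD 0.14) than the weight bearing values (SD 0.04), and the fall of -0.36 ± 0.07 passed limma (adjusted p = 0.00423) but not the methods' t-test (adjusted p = 0.0636). Mrps21, the homologue of bacterial S21, measured 10.77, 10.82, 10.74 and 10.81 in the unloaded arrays, against 10.96, 11.04, 11.11 and 11.04 in the weight bearing arrays. The change was -0.25 ± 0.05 (adjusted p = 0.00442). For Mrps22, whose human counterpart is mutated in an inherited mitochondrial disease, the values were 8.25, 8.10, 8.21 and 8.14 in the unloaded arrays, against 8.52, 8.36, 8.44 and 8.28 in the weight bearing arrays. The lowest weight bearing array was only just above the highest unloaded array, and the change was -0.23 ± 0.06 (adjusted p = 0.0246). In the methods' t-test, where the change is the same by calculation, it missed the threshold (adjusted p = 0.0719). Without unloaded array 2 or 4 or weight bearing array 1 or 3 it stayed between -0.22 and -0.19 and missed the threshold too (adjusted p between 0.0569 and 0.0682).

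Mrps30 was the only member called higher. Its values were 7.13, 7.08, 7.08 and 7.18 in the unloaded arrays, against 6.72, 6.81, 6.78 and 6.83 in the weight bearing arrays. Every unloaded array was above every weight bearing array, the change was 0.33 ± 0.05 (SE, limma adjusted p = 0.00104), and the rise was 1.26-fold. Although its symbol places it in the small subunit, structures of the mammalian ribosome place the protein in the large subunit, as they do that of Mrps18a. Counted by structure, the large subunit had 18 of 50 genes lower and 1 higher (median -0.11), and the small subunit 5 of 26 lower and 0 higher (median -0.10). In 3 other Mrps genes the groups did not overlap although limma made no call: the unloaded values were below for Mrps5 (-0.11) and Mrps9 (-0.10) and above for Mrps23 (0.13). Among all 28 Mrps genes, called or not, every unloaded array was below in 7 and above in 2. Over all probe sets the same held for 12.0% and 15.5%. None of the 8 genes of the head of the small subunit was called by limma or the methods' t-test, with changes between -0.19 and 0.16, 7 of them below 0 and 3 lower at an unadjusted p under 0.05.

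**Figure D2:**
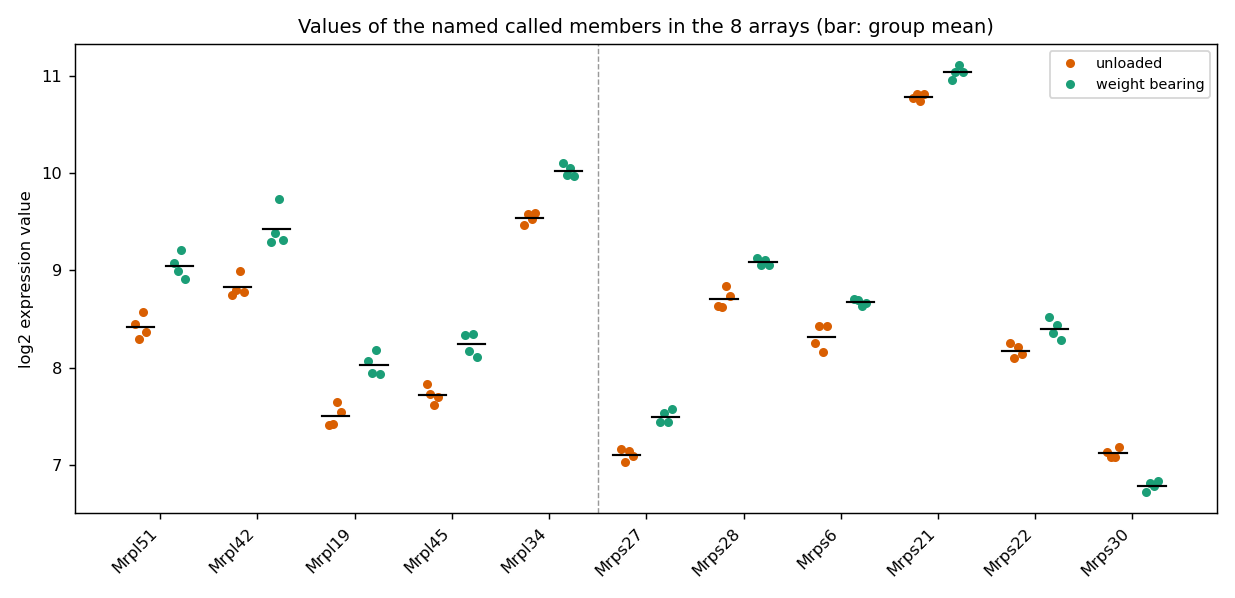
Log2 expression values (y axis) in each array of the 5 large subunit genes (left of the dashed line) and 5 small subunit genes with the largest called falls, and of Mrps30; points are arrays, unloaded in orange to the left of weight bearing in green, and bars are means of 4 arrays. The 11 genes were picked among called members whose groups do not overlap. Mrps30 alone has its unloaded values (7.08 to 7.18) above the weight bearing values (6.72 to 6.83).

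The shift was present in each unloaded array. Relative to the mean of the weight bearing group, the median large subunit gene was at -0.15, -0.17, -0.09 and -0.13 in unloaded arrays 1 to 4, against 0.04, -0.06, 0.04 and -0.03 in weight bearing arrays 1 to 4. The median small subunit gene was at -0.09, -0.13, -0.05 and -0.11 in the unloaded arrays, against 0.03, -0.03, 0.04 and -0.02 in the weight bearing arrays. Unloaded array 3 was the nearest to the weight bearing arrays for both subunits, and neither subunit's medians overlapped between the groups. The change showed little relation to the level of expression across the 76 genes (Pearson r = -0.08, a description, as the genes share the same arrays). The calls were less even. Of the 38 genes at or above the median level, 14 were lower (36.8%) and 0 higher by limma. Of the 38 below it, 9 were lower (23.7%) and 1 higher. The methods' t-test called 13 and 5 lower, and 0 and 1 higher. Over all probe sets 11.0% were lower and 12.8% higher by limma, and 6.48% and 6.57% by the methods' t-test. The difference between these 2 sets of genes was not tested. The spread within groups was small, with a median SD of 0.08 for the members and 0.09 for all probe sets, and the smallest change that was called was 0.16.

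**Figure D3:**
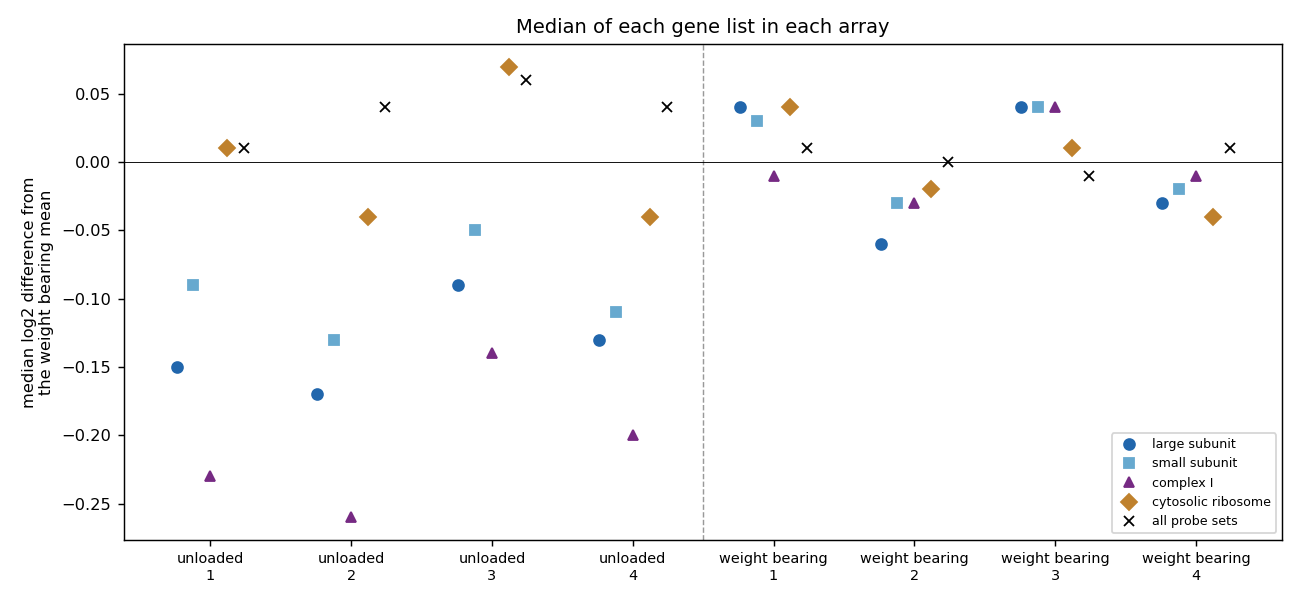
Median over the genes of a list of the log2 difference from the weight bearing mean (y axis) in each of the 8 arrays (x axis, unloaded left of the dashed line). Large and small subunit medians are below 0 in all 4 unloaded arrays (-0.17 to -0.05), the median of the genes with Nduf symbols (complex I) is lower still (-0.26 to -0.14), and there the median of all probe sets is at 0.01 to 0.06.

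The genes that act beside these proteins were described by the same counts, where limma called 11.0% of all probe sets lower and 12.8% higher. Of 5 measured mitochondrial ribosomal proteins with other symbols, 2 were lower: Ptcd3 (-0.58 ± 0.07, adjusted p = 0.00026), a pentatricopeptide repeat protein of the small subunit, and Chchd1 (-0.28 ± 0.06, adjusted p = 0.00961). Dap3 (-0.04), Aurkaip1 (0.06) and Gadd45gip1 (-0.12) were not called. Of 13 translation factors of mitochondria, 7 were lower (53.8%, against 11.0% of all probe sets) and 0 higher by limma, with a median of -0.24. At an unadjusted p under 0.05, 7 were lower and 1 higher (15.4% and 22% of all probe sets were). The methods' t-test called 3 lower and 1 higher (6.48% and 6.57% of all probe sets). The largest fall was that of Taco1, an activator of translation of cytochrome c oxidase subunit I (-0.72 ± 0.05, adjusted p = 1.7e-05). The elongation factor Gfm1 (-0.32), the ribosome recycling factor Gfm2 (-0.38) and the initiation factor Mtif2 (-0.29) were also lower.

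Among 23 assembly factors and ribosomal RNA modifying enzymes, 4 were lower (17.4%, against 11.0% of all probe sets) and 1 was higher, with a median of -0.01. The lower ones were Tfb1m, which methylates the small ribosomal RNA (-0.60), Trmt2b (-0.54), Mettl15 (-0.35) and Mtg1, a GTPase of large subunit assembly (-0.27). Ngrn was higher by 0.17 with limma (adjusted p = 0.0486) and was not called by the methods' t-test (adjusted p = 0.0737). That test called 3 of the 23 lower and 0 higher (6.48% and 6.57% of all probe sets), without Mettl15 (adjusted p = 0.0544). Of 13 genes of mitochondrial transcription and messenger RNA handling, 4 were lower (30.8%, against 11.0%) and 2 higher (15.4%, against 12.8%) by limma, and 1 was lower and 1 higher by the methods' t-test. Lrpprc, which stabilises mitochondrial messenger RNAs, and its partner Slirp were lower by limma (-0.37 and -0.21), Slirp not by the methods' t-test (adjusted p = 0.0861), while Polrmt, the mitochondrial RNA polymerase, was higher (0.27 ± 0.05, adjusted p = 0.00492). The 13 messenger RNAs that the ribosome translates were not analysed here. Complex I of the respiratory chain holds products of both ribosomes. Of 38 genes with the Nduf symbols of its nuclear-encoded subunits, 24 were lower (63.2%, against 11.0% of all probe sets) and 0 higher by limma, with a median of -0.22. The methods' t-test called 14 lower and 0 higher (6.48% and 6.57% of all probe sets). At an unadjusted p under 0.05, 30 were lower and 1 higher (15.4% and 22% of all probe sets). The symbols include Ndufa4, a subunit of complex IV that was not called (-0.03), its relative Ndufa4l2 (-0.31) and Ndufa11b (-0.34), both among the 24, so the count is one of symbols and not of complex I alone. Of 42 genes with symbols of cytosolic ribosomal proteins, 2 were lower (4.76%, against 11.0% of all probe sets) and 7 higher (16.7%, against 12.8%), with 1 lower and 3 higher by the methods' t-test (median 0.01). The symbols include Rps19bp1 and Rps23rg1, which share only the prefix. Mean levels in this list ran from 5.52 to 12.69, against a median of 6.31 over all probe sets. Rps6, 1 of the 2 lower, was at 6.05 in unloaded and 6.30 in weight bearing muscle. How well the dim probe sets measure their genes was not tested. No difference between these lists was tested.

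**Figure D4:**
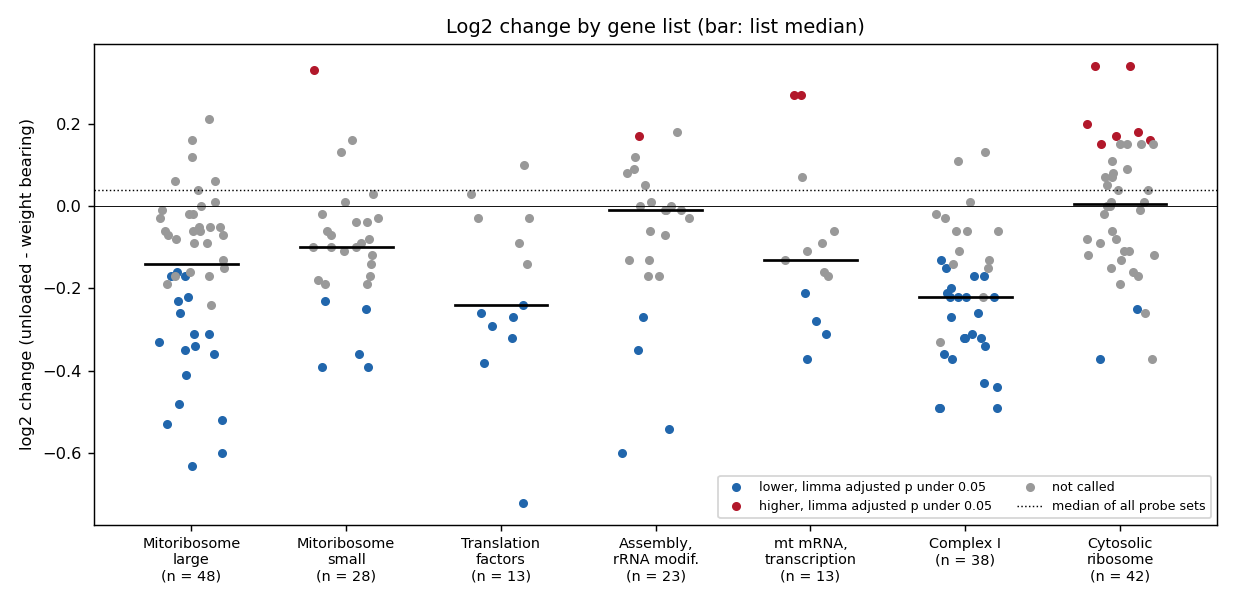
Log2 change (unloaded minus weight bearing, y axis) of each measured gene in 7 lists, with black bars at the list medians and a dotted line at the median of all probe sets (0.04). The medians are -0.14 for the large and -0.10 for the small mitochondrial subunit, -0.24 for translation factors, -0.01 for assembly, -0.13 for transcription and messenger RNA, -0.22 for Nduf symbols (complex I) and 0.01 for the cytosolic ribosome.

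Bcl-3 is a transcriptional activator of the NF-kB family. The study lists genes with a promoter peak of Bcl-3 that was increased in unloaded over weight bearing muscle. That list was made from muscle under the same treatment and is not independent of it. It holds 9 of the 76 members, of which 2 were lower and 0 higher by either test, where 11.0% (limma) and 6.48% (the methods' t-test) of all probe sets were lower (2 and 1 at an unadjusted p under 0.05; median -0.05), against 21 lower and 1 higher among the other 67 (median -0.12). The lower ones were Mrps27, given above, and Mrpl49, a mitochondria-specific protein, which measured 8.53, 8.43, 8.56 and 8.57 in the unloaded arrays, against 8.70, 8.63, 8.72 and 8.72 in the weight bearing arrays. Mrpl49 fell by 1.13-fold without overlap (-0.17 ± 0.05, adjusted p = 0.0301), and stayed between -0.17 and -0.14 but missed the threshold without unloaded array 2 or weight bearing array 1, 3 or 4 (adjusted p between 0.0653 and 0.0793). The NF-kB consensus matched none of the 9 windows, which run from 250 bases before to 50 bases after the start. The study took its peaks over a far wider promoter region, and sites farther from the start were not searched here.

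The remaining 7 were not called by limma, and their groups overlapped. Mrpl11, which lies at the base of the stalk, measured 8.75, 8.77, 8.78 and 8.77 in the unloaded arrays, against 8.90, 8.78, 8.78 and 8.80 in the weight bearing arrays. Mrpl17, at the peptide exit, measured 8.32, 8.42, 8.28 and 8.31 in the unloaded arrays, against 8.36, 8.44, 8.35 and 8.28 in the weight bearing arrays. Both had changes within 0.05 of 0. Mrpl30, a homologue of bacterial L30, measured 10.02, 10.01, 10.06 and 9.98 in the unloaded arrays, against 10.14, 10.12, 9.98 and 10.03 in the weight bearing arrays. Mrpl2, at the catalytic centre, measured 8.63, 8.61, 8.82 and 8.76 in the unloaded arrays, against 8.59, 8.57, 8.73 and 8.67 in the weight bearing arrays. Mrpl55 had the highest change of the 9 (0.16 ± 0.07, adjusted p = 0.115). It measured 8.95, 8.93, 9.15 and 9.0 in the unloaded arrays, against 8.90, 8.71, 8.96 and 8.82 in the weight bearing arrays, so that 2 unloaded arrays lay below the highest weight bearing array.

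Mrps18a and Mrps18b, on the same list, belong with Mrps18c to a family of 3 homologues of bacterial S18, and none of the 3 was called by limma or the methods' t-test. Mrps18a measured 9.49, 9.53, 9.66 and 9.52 in the unloaded arrays, against 9.55, 9.63, 9.86 and 9.52 in the weight bearing arrays, with a change of -0.09 ± 0.08. Mrps18b measured 9.66, 9.73, 9.69 and 9.68 in the unloaded arrays, against 9.67, 9.67, 9.72 and 9.65 in the weight bearing arrays. Its change of 0.01 ± 0.04 was the nearest to 0 of the family. Mrps18c, which takes the place of S18 in the small subunit, measured 8.66, 8.56, 8.84 and 8.71 in the unloaded arrays, against 8.82, 8.73, 8.94 and 8.69 in the weight bearing arrays, and the change was -0.10 ± 0.07 (adjusted p = 0.338).

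In humans a number of these genes are mutated in inherited mitochondrial disease. Of 14 such members, 4 were lower (Mrpl3, Mrpl39, Mrps22 and Mrps28) and 0 higher by limma (3 and 0 by the methods' t-test, 7 and 1 at an unadjusted p under 0.05), with a median of -0.11. Over all probe sets 11.0% were lower by limma, 6.48% with the methods' t-test, and 15.4% were lower and 22% higher at the unadjusted threshold.

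Many mitochondrial ribosomal genes start next to a gene on the opposite strand. Within 1000 bases upstream, 23 members had such a measured neighbour, in 22 pairs, because Mrps11 and Mrpl46 are neighbours of each other with starts 42 bases apart. Their changes were nearly the same (-0.18 and -0.17), and neither was called. Over the 23, 4 neighbours were lower and 5 higher by limma, beside 11.0% and 12.8% of all probe sets. In 7 pairs the member was lower. The neighbour was lower too in 2 of these: Ptcd2, beside Mrps27 (-0.28 ± 0.06, adjusted p = 0.0121), and Ndufb5, a complex I subunit, beside Mrpl47 (-0.32 ± 0.05, adjusted p = 0.00202). In 1 pair it was higher, Tcp1, a chaperonin subunit of the cytosol, beside Mrpl18 (0.16 ± 0.05, adjusted p = 0.043). Ncapd2, a condensin subunit with a start 614 bases from that of Mrpl51, was not called (0.01 ± 0.07, adjusted p = 0.942). Sars2, the mitochondrial seryl-tRNA synthetase beside Mrps12, had a change of -0.38 ± 0.05 (adjusted p = 0.000835), while Mrps12 was not called (-0.12, adjusted p = 0.122). The other called neighbours also stood beside members that were not called: Ppp1r10 was lower (-0.36, beside Mrps18b), and Ighmbp2 (0.29, beside Mrpl21), Zfp661 (0.23, beside Mrps5), Tmem63b (0.27, beside Mrpl14) and Pnpla7 (0.41, beside Mrpl41) were higher. Over all 23 members the changes of member and neighbour were barely related (Pearson r = 0.09, a description over genes on the same arrays, with the pair of Mrps11 and Mrpl46 counted from both sides), and the neighbours had a median change of 0.03.

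**Figure D5:**
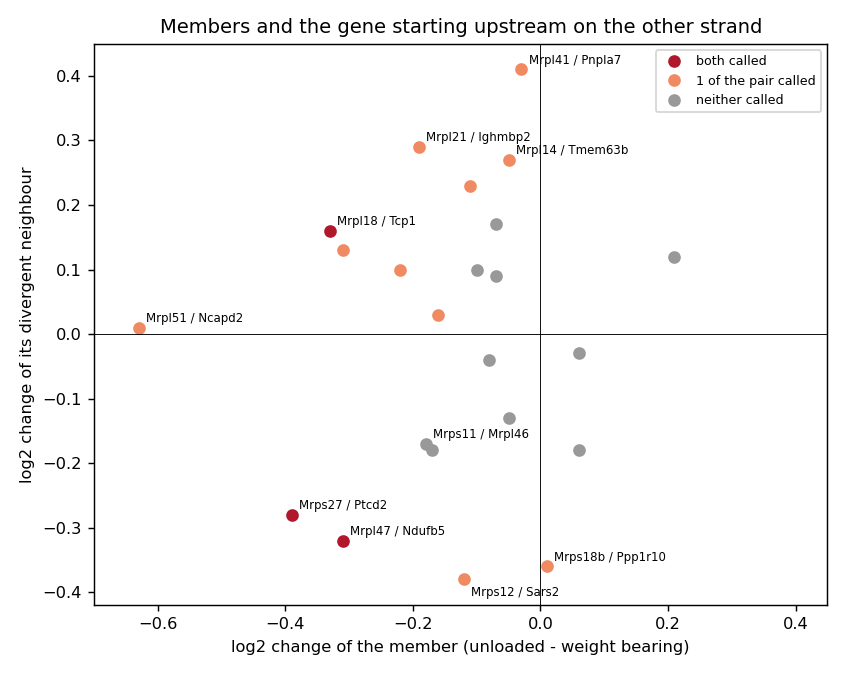
Log2 change (unloaded minus weight bearing) of 23 mitochondrial ribosomal genes (x axis) and of the gene starting within 1000 bases upstream on the other strand (y axis), with names where both were called or the neighbour had an adjusted p under 0.01, and for Mrps11 and Mrpl51. The points do not follow a line (r = 0.09), and in 2 pairs, Mrps27 with Ptcd2 and Mrpl47 with Ndufb5, both genes were lower.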

How the data were processed

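Total RNA of 8 samples was profiled on Affymetrix Mouse Gene 1.0 ST arrays. The authors deposited log2 expression values made by RMA (robust multi-array analysis) over custom probe sets, whose release and build the sources used here do not state. RMA brings the probe intensities of all arrays to 1 distribution before summarising them, so a change shared by most genes cannot be seen. The deposited values still differ slightly between arrays, with medians of 6.28 to 6.33. Values were used as deposited, with no filter.

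RefSeq gene IDs named 20656 probe sets and the platform annotation 53 more; 503 stayed unnamed. Mrpl23, Mrps36 and the mitochondrially encoded genes are not analysed here. The main test was limma 3.58.1 (R 4.3.3; lmFit, eBayes, no covariates, two-sided), adjusted by Benjamini-Hochberg over 21212 probe sets. The methods' t-test is a version run here (unequal variances, q by Benjamini-Hochberg), called at p and q of at most 0.05. It called 1393 probe sets higher, fewer than the genes with increased expression that the paper counts. Its counts are therefore not the study's own. The fit was tested on simulated data. A summed level is the log2 of summed linear values. The number of arrays limits the precision. Values in every array were given for the 5 largest called falls and up to 3 largest called rises per subunit without overlap, the members on the Bcl-3 list and the S18 homologues. The members, lists and rules were chosen with earlier results of these data known; Mrpl27, Mrpl32, Mrpl36, Mrpl58 and the neighbours were singled out after their values were seen. Promoter windows came from RefSeq (GRCm38.p6). Python 3.11.15 (pandas 2.3.3, numpy 2.4.6, matplotlib 3.10.9) was also used.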

Additional observations from a re-analysis of the deposited data

How the results depend on the processing

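Of 23 members called lower, 16 kept the call in all 16 other fits. Mrps27, Mrps28, Mrps21, Mrps30 and, in the large subunit, the 5 genes with the largest falls kept theirs in each fit run for single genes. Of the other 7, Mrps6 lost it only in the methods' t-test. Mrpl17, not called in any fit, had changes between -0.053 and 0.005 with 1 array left out, the only change of sign among the named members, without weight bearing replicate 2 (adjusted p = 0.962). The methods' t-test called 3 small subunit genes lower and 2767 probe sets in all, against 5039. A minimum change of 1.2-fold left 15 members lower, 3 of them of the small subunit, and 2802 probe sets. With Mrpl32 added, 2 members were higher and 1 of the large subunit with an intensity trend and robust variances, with quantile normalization, without the dimmest 25% of probe sets and with the replicate block. Without the dimmest 50%, 10 small subunit genes were lower and 2 higher, with 3 members higher in all and 1 of the large subunit. Fewer probe sets are tested in that fit. It called 4534 among the brighter 50%, against 5039 of all 21212 in the main fit, so the share called over all probe sets was larger too. By structure the large subunit had 1 higher and the small subunit 0. Leaving out 1 array in turn gave 18 to 24 members lower and 1 to 2 higher, 14 to 17 large subunit genes lower and 0 to 1 higher, 4 to 7 small subunit genes lower and 1 higher, medians of -0.15 to -0.12 and -0.12 to -0.08, and 3724 to 5058 probe sets called. The cause of these shifts was not tested. Same-numbered arrays deviated together only weakly (correlations of 0.024, 0.037, 0.12 and 0.095). Between differently numbered arrays the correlations ran from -0.138 to 0.102. The numbers were not taken as pairs, and whether they mark pairs was not tested. The replicate block called 23 members lower, 21 of them the same genes (without Mrpl16 and Mrpl37), and 4668 probe sets. P-values measure the spread between 4 samples per group, which limma steadies with the variance of all probe sets.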
